A study of Mus musculus with 40 samples.

Results

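Ribosome biogenesis factors are the proteins that transcribe, modify, cut and fold ribosomal RNA in the nucleolus and load it with ribosomal proteins. A fixed list of 39 such genes was read from an RNA-seq table of bone marrow-derived macrophages (BMDMs), by matching each gene symbol to 1 row of the 27179 genes listed. All 39 genes had a row and passed the filter on low expression, which left 13103 genes in the time course. The BMDMs came from 4 WT and 4 full-body Cpeb4 knockout (Cpeb4 KO, Cpeb4-/-) male adult mice on a mixed C57BL/6J and 129 background. They were grown for 7 days from femur marrow with L-cell conditioned medium and left untreated or given 10 ng/ml LPS, a bacterial outer membrane component, for 1, 3, 6 or 9 hr. Each mouse gave 1 library at each of the 5 times, so the 40 libraries form 10 groups of 4. Each of the 2 batches in the labels held 2 mice of each genotype. No cage held both genotypes, so cage and genotype cannot be told apart.

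A ribosome starts as a long precursor RNA made by RNA polymerase I. Small nucleolar ribonucleoproteins (snoRNPs) are complexes of a guide RNA with a few fixed proteins. They then mark nucleotides of the precursor for methylation or pseudouridine. A large assembly called the small-subunit processome folds and cuts the part that becomes the 40S subunit, and a separate series of factors builds the 60S subunit. These genes are commonly described as targets of the transcription factor Myc, whose E-box binding sequence is CACGTG, and they are known to be more active in cells that grow and divide. The 39 genes were grouped by these roles: 3 RNA polymerase I subunits, 9 snoRNP proteins, 11 small-subunit assembly factors, 11 large-subunit assembly factors and 5 abundant nucleolar proteins.

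All values are rlog values, the authors' log2-scale expression after correction for library size, so a difference of 1 is a ratio of 2. The rlog table holds no read counts, so the depth of each library is unknown from it. A gene was called where its limma p-value, adjusted by the Benjamini-Hochberg method over all tested genes, was under 0.05. Libraries of 1 group correlated at r = 0.998 or more across all 27179 listed genes. These include genes below the filter and 6395 at 0 in every library, which raise r. In these bulk samples, fewer cells of a type and less RNA per cell cannot be told apart. The median value of a library over the tested genes fell by 0.16 from untreated to 6 hr in WT and by 0.15 in Cpeb4 KO (by 0.11 and 0.10 at 9 hr). Splits after centring each library on this median gene therefore stand beside the counts that this moves. The median of the changes of single genes was −0.02 in WT at 6 hr before centring. Centring moved it to 0.14 at 6 hr and 0.11 at 9 hr in WT, and to 0.14 and 0.09 in Cpeb4 KO. The centred splits, lost calls and sign changes below thus stand against a raised background. All 8 macrophage markers were expressed, whereas in the T cell list 1 of 5 markers passed the filter, in the B cell list 1 of 4, in the neutrophil list 4 of 7, in the dendritic cell list 2 of 4, and in the mast cell, erythroid and fibroblast lists 0. The hemoglobin genes Hba-a1 and Hbb-bs were at 0 in every library. Cpeb4 itself, the targeted gene, ranged from 7.03 to 8.13 in untreated WT and from 6.88 to 7.87 in untreated Cpeb4 KO libraries, and it was called lower in Cpeb4 KO only at 6 hr (10.09 to 10.67 in WT, 8.74 to 9.66 in Cpeb4 KO, difference −1.27, SE 0.19, limma adjusted p = 0.00114). At 1 hr it was 7.68 to 9.46 in WT and 8.23 to 9.41 in Cpeb4 KO, at 3 hr 8.82 to 10.88 and 9.02 to 9.47, and at 9 hr 8.89 to 9.41 and 7.87 to 9.28. The deleted part of the gene is not given in the sources used here, so a level over the whole gene does not check the labels at those times, and "Cpeb4 KO" below means the libraries labelled so.

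LPS raised most ribosome biogenesis mRNAs at 3 hr and for many of them only briefly. In WT BMDMs 31 of the 39 genes were called higher at 3 hr and 2 lower, with a median change of 0.35 and a range from −0.39 to 1.50. Over all 13103 tested genes 33.5% were called higher and 36.4% lower at 3 hr, with a median change of −0.02. Quantile normalization gave 27 higher and 5 lower at 3 hr. At 1 hr the test called 15 genes higher and 2 lower (all genes 19.4% and 18.3%, median of the 39 genes 0.08), and this split became 9 higher and 7 lower after quantile normalization. At 6 hr 18 were higher and 11 lower (all genes 39.7% and 40.2%, median 0.10), which is near the background in the higher direction and below it in the lower one. The split at 6 hr was 26 and 7 after centring on the median gene and 16 and 15 after quantile normalization, where the median changed sign to −0.05. At 9 hr 21 were higher and 10 lower (all genes 37% and 36.6%, median 0.15), and 25 and 7 or 17 and 14 under those scalings. Between 3 and 9 hr 26 genes fell and 4 rose (all genes 35.2% and 34.3%, median −0.31). The comparisons of a genotype share its 4 untreated libraries. The highest WT mean stood at 3 hr for 27 genes, at 1 hr for 5, at 9 hr for 5, at 6 hr for 1 (Rrp1) and in untreated cells for 1 (Rrp1b).

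**Figure D1:**
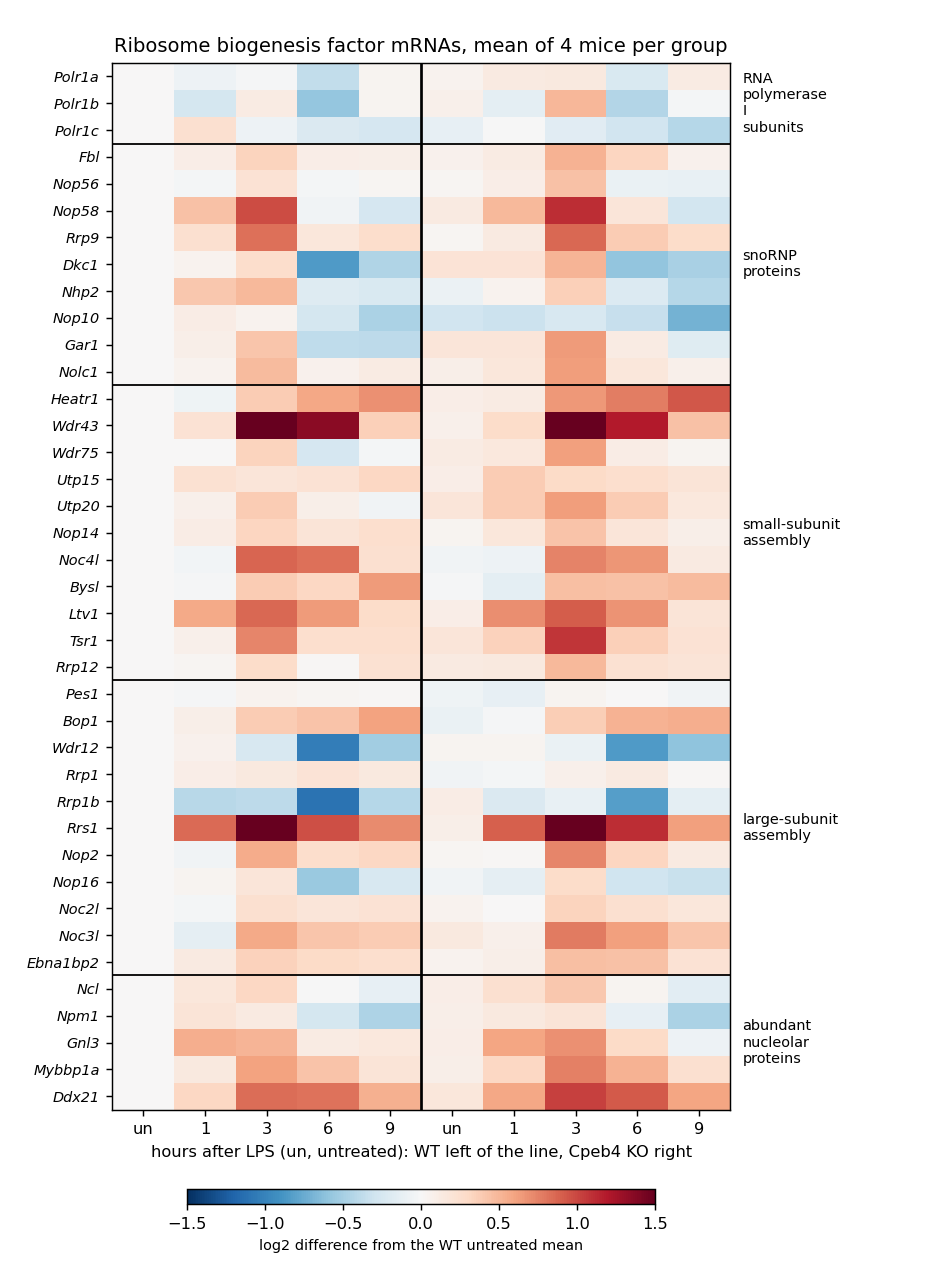
Heat map of the 39 genes (rows, grouped by role) in the 10 groups (columns, WT on the left and Cpeb4 KO on the right, hours after LPS). Colour is the difference of the mean of 4 mice from the WT untreated mean on the log2 scale, cut at 1.5 on both sides, and the 3 hr columns hold the darkest reds, for Wdr43 and Rrs1.

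The rise was seen in each of the 8 mice. Averaged over the 39 genes, the change from the mouse's own untreated library at 3 hr was 0.38, 0.40, 0.40 and 0.47 in the WT mice and 0.45, 0.47, 0.48 and 0.51 in the Cpeb4 KO mice. At 6 hr these means had dropped to between 0.02 and 0.11 in WT and between 0.09 and 0.17 in Cpeb4 KO. At 9 hr they were 0.04 to 0.13 in WT and −0.06 to 0.05 in Cpeb4 KO. The ranges of the genotypes overlapped at each of these times.

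**Figure D2:**
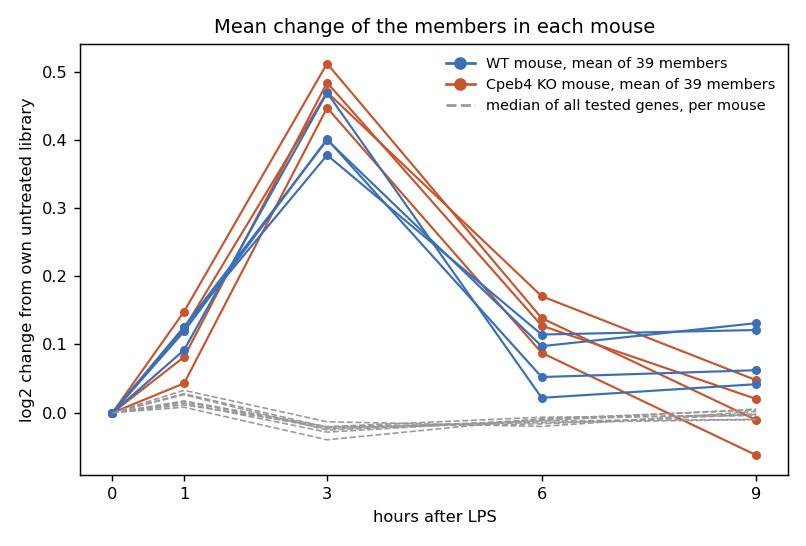
Mean log2 change of the 39 genes from the mouse's own untreated library (y axis) against hours after LPS (x axis), 1 solid line for each of 8 mice, with the median change of all tested genes in the same mouse as a dashed line. All 8 solid lines peak at 3 hr, between 0.38 and 0.51, whereas the dashed lines stay between −0.04 and 0.03.

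The RNA polymerase I subunits did not share the 3 hr rise in WT, where 0 of the 3 were called and their median of −0.02 was above 0 under both other scalings (0.03 and 0.07). Polr1b, the second-largest subunit, stood at 8.47, 8.44, 8.22 and 8.30 in untreated WT libraries and at 8.40, 8.70, 8.32 and 8.47 at 3 hr (mice in the order 25, 69, 87 and 88). These groups overlap, and the difference of 0.12 (SE 0.086, higher in 3 of 4 mice) had a limma adjusted p of 0.225, although it was called after quantile normalization (0.25, adjusted p = 0.00788) and after centring on the median gene (0.20, adjusted p = 0.0343). Polr1c, a subunit shared with RNA polymerase III, read 9.75, 9.78, 9.99 and 9.84 untreated and 9.88, 9.75, 9.92 and 9.53 at 3 hr, which also overlap (−0.07, SE 0.079, adjusted p = 0.439). At 6 hr all 3 subunits were called lower in WT (all genes 40.2%), each in 4 of 4 mice. Polr1b was lower by 0.59, Polr1a, the largest subunit, by 0.37 and Polr1c by 0.22. The call of Polr1c at 6 hr was lost after centring on the median gene (−0.06, adjusted p = 0.525).

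Of the 9 snoRNP proteins 8 rose in WT at 3 hr (all genes 33.5%), with a median of 0.42. All 9 fell between 3 and 9 hr (all genes 35.2%), with a median of −0.56. Nop58, a core protein of the methylation-guide (box C/D) snoRNPs, was at 10.41, 10.42, 10.50 and 10.38 untreated and at 11.40, 11.49, 11.44 and 11.31 at 3 hr. The groups were 0.8 or more apart and all 4 mice rose, by 0.98 on average (SE 0.052, adjusted p = 9.7e-19), a ratio of 1.97. By 9 hr Nop58 had fallen to between 10.06 and 10.26, below every untreated library (−0.25, SE 0.052, adjusted p = 6.03e-05). Nop10, the smallest protein of the pseudouridine-guide (box H/ACA) snoRNPs, was the one not called at 3 hr: 9.93, 10.04, 10.36 and 10.07 untreated and 10.27, 10.10, 10.34 and 9.92 at 3 hr. Its 3 hr difference of 0.06 changed sign after quantile normalization and without mouse 25.

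At 6 hr some box H/ACA proteins were called lower in WT, while the box C/D proteins were not called. This comparison was not fixed in advance. Dkc1, the pseudouridine synthase, read 9.08, 9.13, 9.13 and 9.00 untreated, 9.33, 9.34, 9.42 and 9.30 at 3 hr and 8.26, 8.07, 8.34 and 8.29 at 6 hr. Each of the 3 times was separate from the others, and the 6 hr level was 0.85 below untreated (SE 0.068, adjusted p = 8.94e-14, lower in 4 of 4 mice). Of its partners, Gar1 was lower by 0.38 and Nop10 by 0.26 at 6 hr, while Nhp2 at −0.20 was not called. The call of Gar1 was lost after quantile normalization (−0.16, adjusted p = 0.068) and that of Nop10 after centring on the median gene (−0.10, adjusted p = 0.406). The box C/D proteins Fbl, the methyltransferase, and Nop56 and Nop58 differed from untreated by 0.10, −0.03 and −0.05 at 6 hr, and none of these passed the threshold. Nop56 has 5 near-identical pseudogenes and Fbl has 1, so some of their reads could be placed elsewhere. Over the 9 snoRNP proteins 0 were higher and 3 lower at 6 hr in WT (all genes 39.7% and 40.2%). This split became 4 and 2 after centring on the median gene. In Cpeb4 KO at 6 hr 2 were higher and 1, Dkc1, lower (−0.80, all genes 38.4% and 39.5%), so its box H/ACA partners were not called lower there. Gar1 in Cpeb4 KO read 8.77, 8.82, 9.01 and 8.90 untreated and 8.83, 8.87, 8.66 and 8.88 at 6 hr, which overlap. Quantile normalization gave 2 higher and 4 lower in Cpeb4 KO.

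All 11 small-subunit assembly factors rose in WT at 3 hr (all genes 33.5%), with a median of 0.39. At 6 hr 8 were still called higher (all genes 39.7%), and at 9 hr 9 were (all genes 37%). Wdr43 (mm10 chr17:71616178-71659031, plus strand), a subunit of the complex that binds the start of the precursor RNA, was at 10.55, 10.51, 10.48 and 10.49 untreated and at 12.02, 11.94, 12.02 and 12.04 at 3 hr. That is a gap of more than 1.3 between the groups and a rise of 1.50 (SE 0.041, adjusted p = 3.43e-27, higher in 4 of 4 mice), a ratio of 2.82. It remained at 11.77 to 11.99 at 6 hr and was down to 10.80 to 10.92 at 9 hr, still above every untreated library. Utp15, a partner in the same complex, changed least: 9.51, 9.62, 9.45 and 9.51 untreated and 9.67, 9.75, 9.65 and 9.75 at 3 hr. The groups did not overlap and the rise was 0.18 (SE 0.049, adjusted p = 0.00117). Heatr1 and Wdr75, further partners in that complex, followed other courses, Heatr1 with its highest level at 9 hr (0.68 over untreated) and Wdr75 with a level below untreated at 6 hr (−0.25, a call that was lost under both other scalings). Noc4l and Ltv1, which act in the processome and in the late cytoplasmic particle, were 0.88 and 0.87 over untreated at 3 hr, and Tsr1, another late factor, was 0.73 over it. Reads of Tsr1 may include its neighbour Srr, since the 2 genes lie on opposite strands and share 1240 bases of exon, and the library kit does not mark strand.

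Of the 11 large-subunit assembly factors 7 were higher and 2 lower in WT at 3 hr (all genes 33.5% and 36.4%). Their medians of 0.21 at 6 hr and 0.22 at 9 hr changed sign after quantile normalization, to −0.26 and −0.08. Rrs1 (mm10 chr1:9545408-9547455, plus strand), which helps to place the 5S ribosomal RNA, read 9.60, 9.80, 9.60 and 9.60 untreated and 11.05, 11.27, 11.15 and 11.14 at 3 hr. The groups were far apart and all 4 mice rose, by 1.50 (SE 0.059, adjusted p = 1.37e-22), a ratio of 2.83. Rrs1 was also the highest of the 39 genes at 1 hr, at 0.85 over untreated. Rrp1b, a nucleolar protein related to Rrp1, went the other way: 8.51, 8.47, 8.24 and 8.23 untreated and 7.89, 8.18, 7.89 and 7.93 at 3 hr. It was lower in 4 of 4 mice by 0.39 (SE 0.085, adjusted p = 0.000125), and by 1.10 at 6 hr, when the libraries lay between 7.02 and 7.37. Rrp1 itself was called higher by 0.15 at 3 hr, but quantile normalization reversed this to −0.38 (adjusted p = 9.61e-12).

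The 3 proteins of the PeBoW complex, which act together in 60S assembly, are given here because their values diverged, a choice made after they were seen. In WT at 6 hr Bop1 was 0.43 over untreated (SE 0.046, adjusted p = 1.35e-10), Pes1 differed by 0.03 (SE 0.039, adjusted p = 0.496) and Wdr12 was 1.04 below it (SE 0.062, adjusted p = 2.45e-17). At 3 hr the changes were 0.38, 0.05 and −0.24 in the same order, and Wdr12 was no longer called at 3 hr after quantile normalization (−0.13, adjusted p = 0.0602). Pes1 has 2 and Wdr12 has 1 near-identical pseudogene in the annotation, so some of their reads could be placed elsewhere.

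The 5 abundant nucleolar proteins were all called higher in WT at 1 hr and at 3 hr (all genes 19.4% and 33.5%), with medians of 0.20 and 0.51. After quantile normalization, however, the 1 hr median was −0.02, with 2 higher and 1 lower, and the 3 hr median 0.25, with 3 higher and 2 lower. Ddx21, an RNA helicase, read 10.93, 10.87, 10.72 and 10.89 untreated and 11.57, 11.84, 11.50 and 11.88 at 3 hr, a gap of more than 0.5 between the groups. Its rise was 0.84 (SE 0.085, adjusted p = 6.02e-11, higher in 4 of 4 mice), and it stayed at 11.64 to 11.70 at 6 hr. Npm1, the histone and ribosome chaperone nucleophosmin, read 12.14, 12.22, 12.31 and 12.24 untreated and 12.40, 12.33, 12.48 and 12.23 at 3 hr. These groups overlap and the difference was 0.14 (SE 0.060, adjusted p = 0.042, higher in 3 of 4 mice). Quantile normalization turned it into a called fall, −0.35 (adjusted p = 1.22e-05), and turned the 3 hr rise of Ncl, nucleolin, from 0.31 into −0.30 (adjusted p = 7.17e-09). Ncl had the highest mean level of the 39 genes over the 40 libraries, 13.66. Npm1 has 5 near-identical pseudogenes and Ddx21 has 1. At 9 hr Npm1 was 11.74, 11.78, 11.82 and 11.72, below every untreated library (−0.46, SE 0.060, adjusted p = 1.65e-08).

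**Figure D3:**
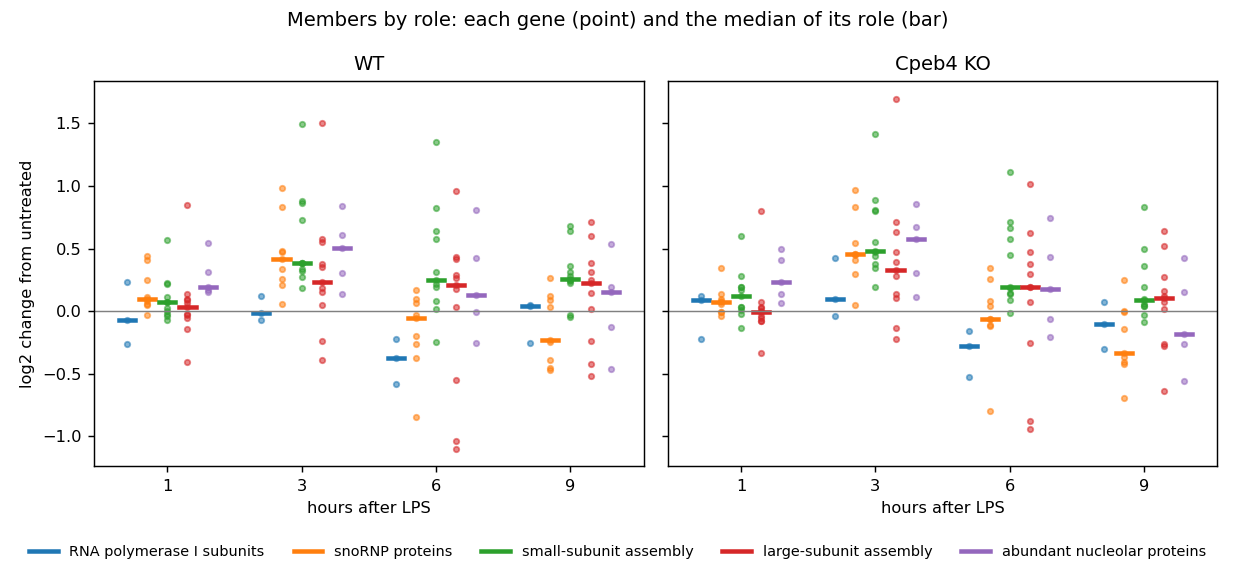
Log2 change from untreated (y axis) of each gene (points) and the median of its role (bars) at 1, 3, 6 and 9 hr after LPS (x axis), in WT on the left and Cpeb4 KO on the right. At 3 hr in WT the role medians are 0.42 for snoRNP proteins, 0.39 and 0.24 for small- and large-subunit assembly, 0.51 for abundant nucleolar proteins and −0.02 for RNA polymerase I subunits (above 0 under both other scalings), and at 9 hr the snoRNP median is −0.23 while that of small-subunit assembly is 0.25.

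Proliferation markers moved in both directions over the time course. In WT 4 of the 15 markers of the list, which includes Mki67 and Top2a, were called higher and 0 lower at 1 hr (median 0.18), and 1 was higher and 8 lower at 3 hr. All 15 were called lower at 6 hr and at 9 hr, with median changes of −1.70 and −1.77. Their summed level, as 2 to the power of the rlog value, was 34288 to 36416 in untreated WT libraries, 40318 to 43475 at 1 hr, 33702 to 37717 at 3 hr, 15317 to 17204 at 6 hr and 14520 to 15777 at 9 hr. The neutrophil list summed to 67.4 to 134 in untreated WT libraries and 186 to 264 at 6 hr. In such a sum the markers with the highest levels weigh most, here S100a8 and S100a9. At 6 hr 2 of the 4 tested neutrophil markers were called higher and 0 lower, with changes from −0.34 to 1.75. The dendritic cell list summed to 39.7 to 67.4 untreated, 71.1 to 124 at 1 hr, 133 to 153 at 3 hr and 107 to 137 at 6 hr. Both of its markers that passed the filter were called higher at 1 and 3 hr (median 1.17 at 3 hr). At 6 hr 1 of them was called higher (1.34) and 1 lower (−0.42). Among the other lists, the highest sum in any library was 156 for the T cell, 99.5 for the B cell, 49.5 for the fibroblast, 5.71 for the mast cell and basophil and 4.50 for the erythroid list, while the macrophage list summed to at least 412374 in every library. The part of these changes in the values of the ribosome biogenesis genes was not tested.

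Myc, the transcription factor, had its highest WT mean at 1 hr, as did 5 of the 39 genes (Polr1c, Nop10, Wdr12, Npm1 and Gnl3), whereas 27 stood highest at 3 hr. In WT it was at 9.28 to 9.59 untreated, 10.74 to 11.02 at 1 hr, 9.03 to 9.11 at 3 hr, 9.14 to 9.31 at 6 hr and 8.15 to 8.29 at 9 hr. It was thus higher by 1.39 at 1 hr (SE 0.066, adjusted p = 1.51e-19) and lower than untreated by 0.37 at 3 hr (adjusted p = 6.41e-06).

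The genes most like the rest in their course over the 40 libraries were Nolc1, a snoRNP chaperone, with r = 0.975 against the mean of the other 38 genes, Rrp9, a protein of the U3 snoRNP, with r = 0.886 and Tsr1 with r = 0.881. The least alike were Rrp1b with r = −0.005, Polr1c with r = 0.007 and Wdr12 with r = 0.090. These correlations are descriptions over libraries that share mice, batches and the LPS time course. After the group means were taken out, r was 0.845 for Nolc1, 0.348 for Rrp9, 0.244 for Tsr1 and 0.403 for Rrp1b.

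The remaining genes of the pathway were described from a list of 103 further factors, all of which passed the filter. In WT at 3 hr 71 of them were higher and 12 lower (median 0.28, all genes called 33.5% and 36.4%). At 6 hr the counts were 52 and 20 (median 0.10, all genes called 39.7% and 40.2%). At 9 hr they were 51 and 14 (median 0.12, all genes called 37% and 36.6%). At 1 hr they were 31 and 11 (median 0.07, all genes called 19.4% and 18.3%). Their 3 hr share of higher calls stands beside 31 of 39 in the genes above and 33.5% of all genes. The largest 3 hr rises were in Rcl1, a processome protein (1.82, SE 0.061, adjusted p = 1.46e-24), Sdad1, a 60S factor (1.33, SE 0.064, adjusted p = 6.77e-20), and Nol10, a processome protein (1.18, SE 0.048, adjusted p = 3.77e-22). The largest falls were in Cd3eap, an RNA polymerase I subunit (−0.91, SE 0.083, adjusted p = 5.74e-12), Imp3, a U3 snoRNP protein (−0.73, SE 0.11, adjusted p = 5.84e-07), and Ddx55, a 60S helicase (−0.47, SE 0.064, adjusted p = 4.49e-08). By role, 27 of 39 small-subunit, 34 of 44 large-subunit, 6 of 8 snoRNP and 4 of 12 RNA polymerase I transcription genes of this list were higher at 3 hr.

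Over the 39 genes as a whole the Cpeb4 KO time course had the same outline, though single genes could differ. At 3 hr 33 of the 39 genes were higher and 1 lower, with a median of 0.45 (all genes 33.7% and 36.2%). The 1 gene called lower was Rrp1b (−0.22, SE 0.085, adjusted p = 0.0204), a call that was lost after quantile normalization (−0.10, adjusted p = 0.269) and after centring on the median gene (−0.16, adjusted p = 0.094). With the mouse as a block 2 genes were lower. At 1 hr 11 were higher and 2 lower (all genes 22.6% and 19.4%), or 6 and 7 after quantile normalization. At 6 hr 20 were higher and 7 lower (all genes 38.4% and 39.5%), or 27 and 4 after centring on the median gene and 17 and 14 after quantile normalization. At 9 hr 14 were higher and 13 lower (all genes 35.7% and 35.6%), or 20 and 8 and 11 and 17 under those scalings. Between 3 and 9 hr 32 fell and 2 rose (all genes 34.6% and 33.9%), with a median of −0.52. The highest mean stood at 3 hr for 31 genes. The 15 proliferation markers were all called lower at 6 and 9 hr here too, with medians of −1.57 and −1.67.

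Whether LPS changed these genes differently in the 2 genotypes was tested as the genotype by time interaction. No gene of the 39 was called at 1 hr or 3 hr (0.00763% and 0.206% of all genes), where 0 and 5 had an unadjusted p under 0.05. At 6 hr 5 genes had one, 4 of them with a higher LPS change in Cpeb4 KO. At 9 hr 10 had one, all with a lower LPS change there, and the median interaction of the 39 genes was −0.10. How many of all tested genes had an unadjusted p under 0.05 is not given, so these counts have no background. At 6 hr 1 gene was called (all genes 2.94%), Wdr43, whose LPS change was smaller in Cpeb4 KO by 0.24 (SE 0.059, adjusted p = 0.0167). Its 6 hr libraries were at 11.77, 11.82, 11.85 and 11.99 in WT and at 11.67, 11.71, 11.79 and 11.62 in Cpeb4 KO (mice 2, 3, 55 and 62), which overlap. This call was lost when mouse 2, 62, 87 or 88 was left out. At 9 hr 1 gene was called (all genes 1.76%), Gnl3, the nucleolar GTPase nucleostemin, which is named because it was the one called. Gnl3 was at 9.84, 9.98, 9.93 and 9.90 untreated and 10.11, 10.03, 10.06 and 10.06 at 9 hr in WT. In Cpeb4 KO it was at 10.02, 9.98, 10.01 and 10.05 untreated and 9.81, 9.83, 9.78 and 9.92 at 9 hr. The WT libraries at 9 hr all lay above, and the Cpeb4 KO libraries all below, the untreated ones of their genotype, and the interaction was −0.34 (SE 0.056, adjusted p = 0.000504). With the mouse as a fixed block 4 genes were called at 6 hr (all genes 7.88%) and 4 at 9 hr (all genes 4.99%). Those at 6 hr were Gar1 (0.31, adjusted p = 0.00978), Wdr43, Wdr75 (0.24, adjusted p = 0.0302) and Bop1 (0.19, adjusted p = 0.0352), and those at 9 hr were Gnl3, Nop14, Ltv1 and Utp15, each with a lower LPS change in Cpeb4 KO.

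**Figure D4:**
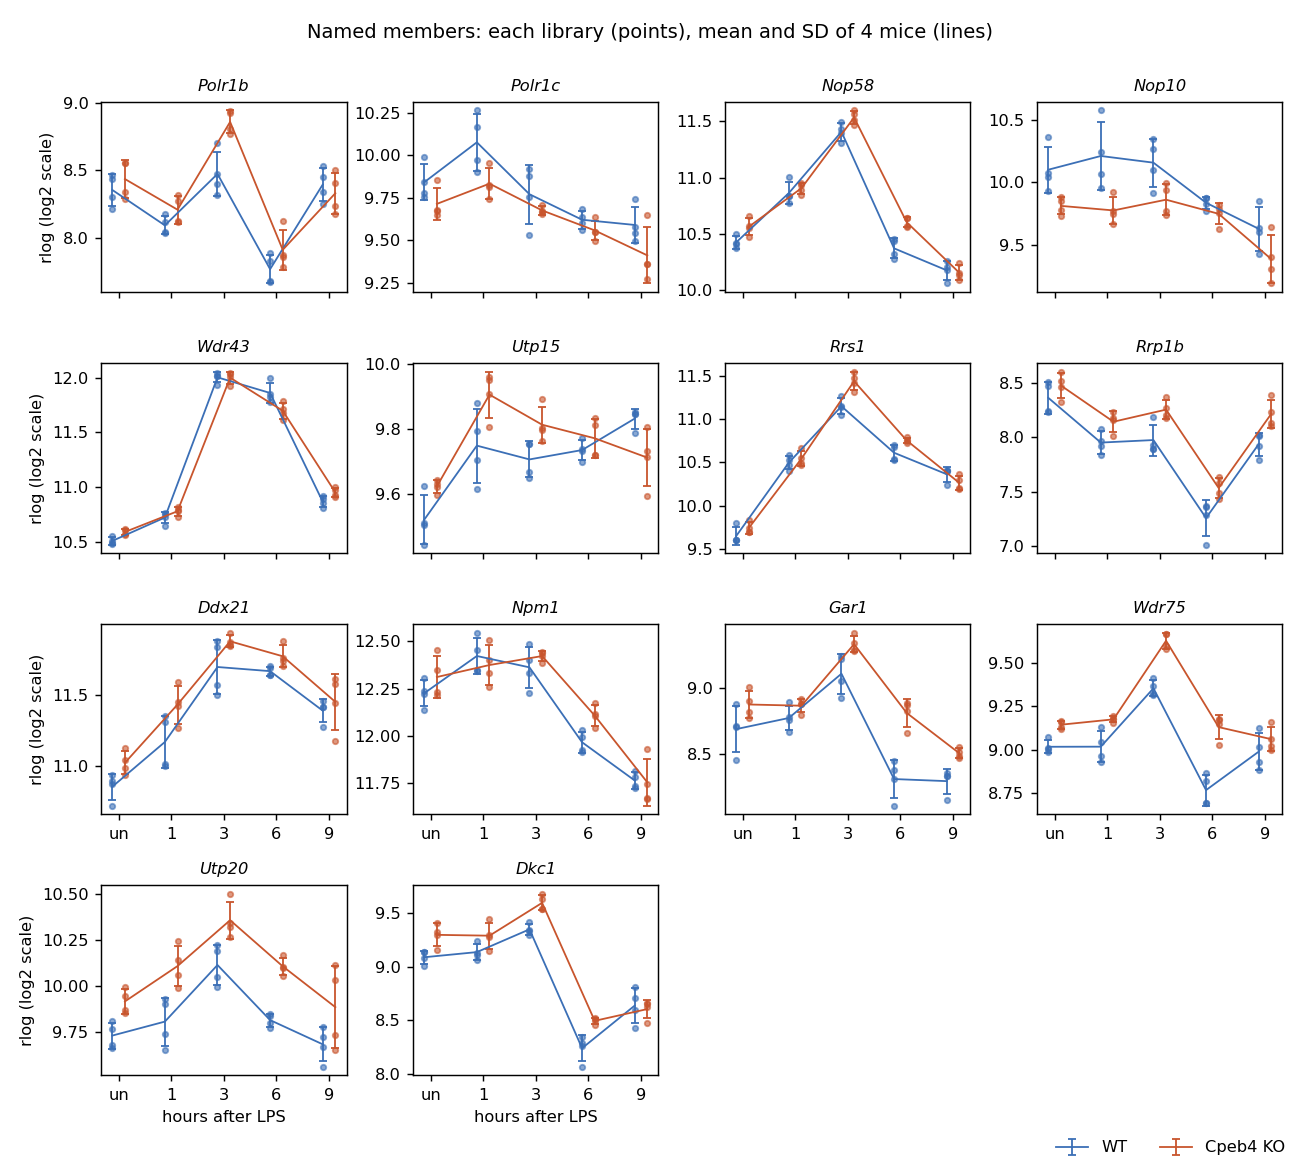
rlog values (y axis, log2 scale) of 14 genes in each library (points) with the mean and SD of 4 mice (lines and bars) against time after LPS (x axis, un for untreated), WT in blue and Cpeb4 KO in orange. Nop58, Wdr43 and Rrs1 peak at 3 hr in both genotypes, and the Cpeb4 KO points of Gar1 lie above the WT points at 6 hr.

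Between genotypes, the genes called at 3 and 6 hr stood mostly higher in Cpeb4 KO. The median difference of 0.14 at 3 hr stands beside a median LPS change of 0.35 in WT at that time, and that of 0.12 at 6 hr beside one of 0.10. In untreated cells 0 of 39 genes were called in either direction (all genes 0.741% higher, 0.565% lower, median of the 39 genes 0.08). At 1 hr 0 were called (all genes 0.976% and 0.938%, median 0.06). At these times 11 and 16 had an unadjusted p under 0.05, counts for which no share of all genes is given. At 3 hr 4 genes were higher and 0 lower (all genes 1.81% and 1.87%), namely Polr1b, Dkc1, Wdr75 and Rrs1. The 3 hr call of Dkc1 was lost after quantile normalization (0.22, limma adjusted p = 0.0531) and after centring on the median gene (0.23, limma adjusted p = 0.0501). At 6 hr 11 were higher and 1, Noc4l, lower (all genes 6.4% and 9.92%). At 9 hr 0 were higher and 1, Gnl3, lower (all genes 4.69% and 3.22%, median −0.05). Leaving out 1 mouse moved these counts: between 0 and 10 genes were higher at 3 hr (0 without mouse 3, 25 or 62 and 10 without mouse 88), and between 5 and 14 at 6 hr (5 without mouse 69 or 88). At 9 hr 8 were lower and 4 higher without mouse 2. In a fit of all 40 libraries 16 were higher at 3 hr (all genes 4.81%) and 11 at 6 hr (all genes 6.1%), and 9 higher and 4 lower were called at 1 hr, where that fit called 31.9% of all genes. Macrophage markers also differed between genotypes. Their summed level was lower in Cpeb4 KO without overlap at each of the 5 times (620165 to 652574 in WT and 495678 to 575905 in Cpeb4 KO at 6 hr). Lyz2, with a mean rlog of 18.24, weighs most in that sum. Of the 8 markers 1 was called lower untreated, 1 at 1 hr, 2 at 3 hr, 4 at 6 hr (median −0.25) and 3 at 9 hr, with 0 called higher. Not every marker was lower, with differences of up to 0.41 at 1 hr and 0.38 at 9 hr. The part of these marker differences in those of the 39 genes was not tested.

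Gar1, of the box H/ACA snoRNPs, had the largest called difference. At 6 hr it was at 8.31, 8.38, 8.45 and 8.11 in WT and at 8.83, 8.87, 8.66 and 8.88 in Cpeb4 KO, with no overlap. The difference was 0.50 (SE 0.078, adjusted p = 0.00156), a ratio of 1.41, and within batches it was 0.67 in batch 1 and 0.33 in batch 2. At 3 hr and 9 hr its differences of 0.22 and 0.21 were not called (adjusted p = 0.124 and 0.07), although the libraries did not overlap. Both were called with the mouse as a random block (adjusted p = 0.0339 and 0.0314), where 10.6% and 18.1% of all genes were called. Dkc1, its partner, was at 8.26, 8.07, 8.34 and 8.29 in WT and at 8.51, 8.49, 8.46 and 8.52 in Cpeb4 KO at 6 hr, again without overlap (0.26, SE 0.065, adjusted p = 0.0194). Without mouse 2 its adjusted p was 0.0547.

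Of the small-subunit factors, Wdr75 was at 8.87, 8.69, 8.82 and 8.69 in WT and at 9.15, 9.18, 9.17 and 9.03 in Cpeb4 KO at 6 hr. The groups were apart, by 0.36 on average (SE 0.059, adjusted p = 0.00195), and they were apart at 3 hr as well (0.27, SE 0.051, adjusted p = 0.0201). Utp20, a long scaffold protein of the processome, was at 9.84, 9.77, 9.80 and 9.85 in WT and at 10.06, 10.17, 10.10 and 10.11 in Cpeb4 KO at 6 hr. Its groups did not overlap (0.29, SE 0.043, adjusted p = 0.00109), and both batches gave 0.29.

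The calls of Polr1b and Rrs1 were at 3 hr and near the threshold. Polr1b was at 8.40, 8.70, 8.32 and 8.47 in WT and at 8.77, 8.94, 8.80 and 8.93 in Cpeb4 KO. The groups did not overlap (0.38, SE 0.085, adjusted p = 0.0403), and the value was 0.49 in batch 1 and 0.27 in batch 2. Rrs1 was at 11.05, 11.27, 11.15 and 11.14 in WT and at 11.31, 11.55, 11.42 and 11.48 in Cpeb4 KO, also without overlap (0.29, SE 0.064, adjusted p = 0.0399), with 0.43 in batch 1 and 0.15 in batch 2. Both calls were lost without the low-expression filter, with batch as a covariate and in most fits that left out 1 mouse. Myc was higher in Cpeb4 KO at 3 hr by 0.34 (9.29 to 9.47 against 9.03 to 9.11, SE 0.057, adjusted p = 0.0152) and differed by −0.04 at 6 hr (SE 0.062, adjusted p = 0.692). Its part in the differences of the 39 genes was not tested. At 3 hr the same test called 2 of the 103 further pathway genes higher in Cpeb4 KO and 0 lower. The shares of all genes were 1.81% and 1.87%. At 6 hr it called 17 and 5 (all genes 6.4% and 9.92%) and at 9 hr 0 and 3 (all genes 4.69% and 3.22%).

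**Figure D5:**
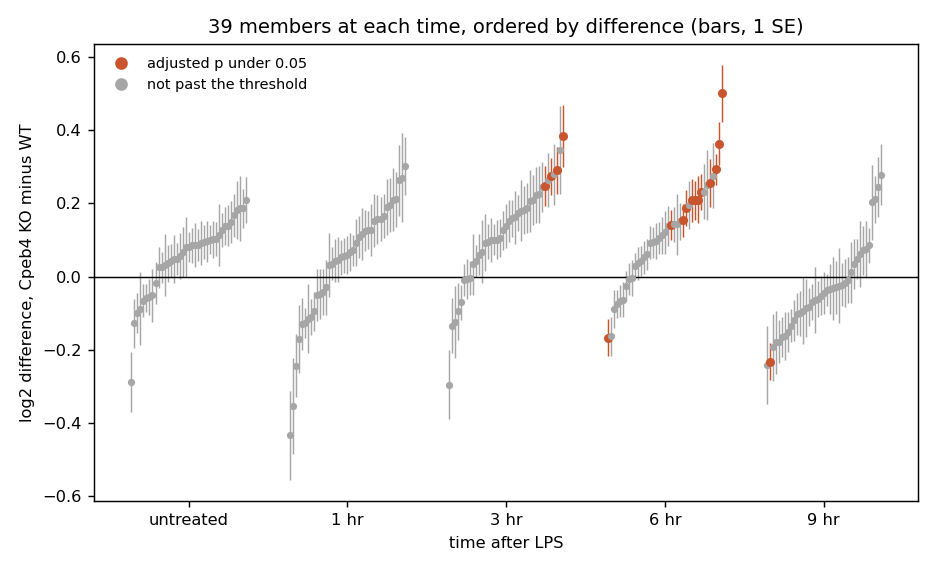
Difference of the 39 genes between Cpeb4 KO and WT (y axis, log2 scale, bars 1 SE) at each time (x axis), ordered by size within a time, with called genes in orange. At 6 hr 11 orange points lie above 0, up to 0.50 for Gar1, and 1 lies below it, and at 9 hr the 1 orange point, Gnl3, lies at −0.23.

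Sequence features that the selection did not use were found in a minority of the 39 genes. Within their own span and on the same strand 7 of the 39 hold snoRNA genes (Nop56, Nop58, Dkc1, Wdr43, Tsr1, Ncl and Gnl3, with 21 snoRNA genes between them), which is 17.9%, beside 1.72% of 11993 tested protein-coding genes (206 genes). All 7 were called higher in WT at 3 hr, and 24 of the 32 other genes were (all genes 33.5%). After quantile normalization 6 of the 7 were higher and 1 lower at 3 hr, beside 21 higher and 4 lower of the 32. Between 3 and 9 hr all 7 fell, as did 19 of the 32 others (all genes 35.2%). Poly(A) libraries give the host mRNA and not the snoRNA. A promoter window of 300 bases, from 250 before to 50 after the start, was given for 34 of the 39 genes in RefSeq (GRCm38.p6). The E-box CACGTG, which reads the same on both strands, stood in 7 of them (20.6%), in 16 of 88 windows of the further pathway genes (18.2%) and in 1178 of 10014 windows of tested genes (11.8%). In WT at 3 hr the median change was 0.61 for the 7 genes with the E-box and 0.32 for the 27 without it. The genes with no window (Rrp12, Bop1, Npm1, Fbl and Rrs1) are in neither group, and Rrs1 had the largest rise of the 39 genes (1.50). A match describes the sequence and shows no binding.

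The 7 windows around the E-box are printed to show where it lies and how its flanks differ. Each is 30 bases or less on the strand of the gene, with the E-box in capitals, and the position of its first base is counted from the start on which the RefSeq window was placed. For Wdr43 that start lies inside the gene, downstream of the gene start given above.
Wdr43 (chr17:71616220-71616249, plus strand, position 17): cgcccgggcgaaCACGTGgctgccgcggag
Ltv1 (chr10:13193092-13193121, minus strand, position 28): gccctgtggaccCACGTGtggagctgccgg
Tsr1 (chr11:74898092-74898121, plus strand, position 24): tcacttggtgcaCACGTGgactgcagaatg
Utp20 (chr10:88826765-88826789, minus strand, position 37): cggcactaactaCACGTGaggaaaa
Mybbp1a (chr11:72441355-72441376, plus strand, position 40): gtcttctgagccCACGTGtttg
Pes1 (chr11:3963965-3963994, plus strand, position 2): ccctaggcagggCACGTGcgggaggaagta
Nop2 (chr6:125131811-125131840, plus strand, position −60): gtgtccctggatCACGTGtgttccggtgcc
In 6 of the 7 the E-box lay after that start, and in Nop2 it lay upstream. Among them Pes1 was not called in WT at 3 hr (0.05), and the other 6 rose by between 0.39 (Utp20) and 1.50 (Wdr43).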

How the data were processed

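The deposited table holds rlog values on a log2 scale for 27179 genes in 40 libraries. Per the labels and the study's methods, the authors aligned poly(A) reads (8 PCR cycles) to mm10 with STAR 2.3.0e, counted reads per gene with featureCounts and applied the rlog function of DESeq2. rlog corrects for library size and shrinks differences of genes with few reads. 0 value columns were left unused and no pair of libraries was identical. Depths are not in the table.

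Groups came from the sample labels. Time courses and interactions were fitted with limma 3.58.1 (R 4.3.3, lmFit and eBayes with trend) over all 40 libraries as 10 group means, and genotypes were compared over the 8 libraries of each time (13008 to 13118 genes), keeping genes whose rlog averaged 2.32 or more, the log2 of 5. Adjustment for multiple tests followed Benjamini and Hochberg across every gene tested. Each mouse gave all 5 times, so its libraries are paired. After group means were removed, the median r between libraries of 1 mouse was 0.29, with 68 of 80 pairs above 0.1, against −0.09 between different mice of a genotype. The main fits did not use this pairing, and the replicate block is an alternative. Time-course and interaction p-values measure the spread of libraries within groups, pooled over the 10 groups. P-values between genotypes measure the spread between the 4 mice of each genotype at 1 time.

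Members and gene lists were chosen with earlier results of these data known. Named with each library's value were the highest and lowest WT change within each role at 3 hr (the time with most genes called) and the 6 largest called genotype differences. Genes called in the interaction and the PeBoW proteins were added after their values were seen. The comparison of box H/ACA with box C/D proteins was not fixed in advance either. Genes, exons and snoRNAs are from GENCODE on mm10, and pseudogenes with at least 95% identity over 200 bases were found with blastn 2.17.0. The fits were tested on simulated data. Alternatives were other filters, eBayes settings and scalings, batch as a covariate, the replicate block, other sets of libraries and leaving out each mouse.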

Additional observations from a re-analysis of the deposited data

Results flagged for a closer look

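In 2 genes the LPS change differed between genotypes by the interaction test. These were 1 of the 39 genes at 6 hr (all genes 2.94%) and 1 of 39 at 9 hr (all genes 1.76%). The call at 6 hr was lost in some fits that left out a mouse, as given above. The change of Wdr43 at 6 hr was lower in Cpeb4 KO by 0.24 on the log2 scale (interaction −0.24, limma adjusted p = 0.0167), and that of Gnl3 at 9 hr was lower by 0.34 (interaction −0.34, adjusted p = 0.000504).

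In 140 groups of 4 libraries (14 genes in 10 groups), 1 library stood apart from the other 3 by Dixon's criterion in 6 groups, and chance gives about 1 in 20. Polr1c in untreated Cpeb4 KO was 9.86 in mouse 55 and 9.65 to 9.68 in the others. Utp15 in WT at 9 hr was 9.79 in mouse 69 and 9.84 to 9.85 in the others. Rrs1 in untreated WT was 9.80 in mouse 69 and 9.60 in the others, and at 9 hr it was 10.24 in mouse 88 and 10.40 to 10.41 in the others. Rrp1b in WT at 3 hr was 8.18 in mouse 69 and 7.89 to 7.93 in the others. Gar1 in WT at 9 hr was 8.15 in mouse 88 and 8.33 to 8.36 in the others.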

How the results depend on the processing

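Counts of genes called higher or lower kept within 1.5 times of their value in 514 of 598 comparisons with another setting. The exceptions, by setting, follow; the cause was not tested. Quantile normalization gave, in WT, 9 genes up and 7 down at 1 hr and 5 down at 3 hr, and in Cpeb4 KO 6 up and 7 down at 1 hr, 3 down at 3 hr and 14 down at 6 hr. Centring on the median gene gave 7 lower at 6 hr in WT, and in Cpeb4 KO 0 lower at 3 hr, 4 at 6 hr and 8 at 9 hr, with 3 interaction calls at 9 hr and 2 genes lower in Cpeb4 KO at 6 hr. With the replicate block (mouse as a random or fixed effect), 2 were lower in Cpeb4 KO at 3 hr (all genes 38.3% or 38.5%). Interaction calls were 4 at 6 hr (all genes 7.09% random, 7.88% fixed). At 9 hr they were 5 (random, all genes 4.66%) or 4 (fixed, all genes 4.99%). Between genotypes the random block gave 9 genes above and 4 below WT at 1 hr (all genes 17.4% and 15.6%). It gave 17 above at 3 hr (5.16%), 2 below at 6 hr (9.9%) and 3 above and 4 below at 9 hr (9.43% and 8.72%). All 40 libraries in one fit gave 9 and 4 at 1 hr (16.8% and 15.1%) and 16 above at 3 hr (4.81%). That fit also gave 2 below at 6 hr (9.46%) and 2 above and 4 below at 9 hr (9.01% and 8.4%). The block moved no other count by over 1.5 times. Without the low-expression filter 3 interaction calls were made at 9 hr, 1 gene was above WT at 3 hr, and 7 above and 0 below it at 6 hr. eBayes without trend gave 1 at 3 hr, and 6 and 0 at 6 hr. Batch as a covariate gave 1 at 3 hr, and 2 above and 2 below WT at 9 hr.

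Leaving out 1 mouse, 1 to 2 genes were lower at 1 hr in either genotype. Interaction calls were 0 to 2 at 6 hr and 1 to 2 at 9 hr. Counts above and below WT were 0 to 2 and 0 to 3 at 1 hr, 0 to 10 and 0 to 2 at 3 hr, 5 to 14 and 0 to 2 at 6 hr, and 0 to 4 and 0 to 8 at 9 hr. Of single 3 hr changes in WT, Polr1c turned to 0.01 after centring on the median gene (0.014) and without mouse 88 (0.0088), Nop10 to −0.050 after quantile normalization and −0.038 without mouse 25, and Npm1 to −0.35 after quantile normalization. Over all mice left out in turn, Polr1c lay between −0.136 and 0.0088 and Nop10 between −0.038 and 0.127. The call of Npm1 was lost without the filter and without mouse 3, 25, 69 or 87. Depth is unknown from the table, so no limit by depth can be set.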
